A study of Mus musculus with 47 samples.

Results

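The genes described here encode the nuclear subunits of respiratory complexes II to V of mitochondria. They were taken by name from the genes of the count tables, as protein-coding genes whose symbols start with Uqcr or Atp5, are Cyc1 or Sdha to Sdhd, or start with Cox4 to Cox8. This gave 47 genes present in both tables, 4 of complex II, 9 of complex III, 17 of complex IV and 17 of complex V, among 33139 genes listed in brainstem and 31751 in hippocampus. In each region 41 of the 47 reached the mean count of 50 that a gene needed to be tested, and 13340 genes did so in brainstem and 13272 in hippocampus. The untested members were Cox4i2, Cox6a2, Cox6b2, Cox7a1, Cox7b2 and Cox8b, all subunit isoforms of other tissues. Cox8c and a second identifier of Atp5o also match the names and were not analysed here.

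Complexes III and IV pass electrons from ubiquinol to oxygen and pump protons across the inner mitochondrial membrane, and complex V, the ATP synthase, uses the proton gradient to make ATP. Complex II is an enzyme of the citric acid cycle that feeds electrons into the chain without pumping protons, and all its subunits come from nuclear genes. The cores of complexes III to V also hold subunits made from mitochondrial DNA, so the nuclear and the mitochondrial genome both contribute to each. Neurons depend on this pathway for most of their ATP.

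The libraries came from male C57BL/6 mice of 2 genotypes and 2 diets, and the study asked how a high-fat diet acts together with a Parkinson's disease transgene. TG mice carried human A30P alpha-synuclein under the neuron-specific Thy1 promoter and were kept as a homozygous colony, and WT mice came from a parallel colony of the same outcross. Each genotype received a standard diet (SD) or a high-fat diet (HFD) from weaning until about a year of age, which made the groups WT-SD, WT-HFD, TG-SD and TG-HFD. RNA of the brainstem, dissected as the medulla, and of the whole hippocampus was sequenced with 6 mice per group, except brainstem WT-SD with 5.

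The reads counted on genes numbered 10020784 to 15078812 per brainstem library and 11945971 to 17328447 per hippocampus library, and this depth sets the precision of low counts. The human transgene had 6 to 50 counts in the WT libraries and at least 36959 in the TG libraries, so every library carried the genotype of its label. Markers of hippocampal neurons (Prox1, Wfs1, Neurod6, Neurod2) summed to at least 446.0 CPM (counts scaled to a common library size) in each hippocampus library and to at most 104.4 CPM in each brainstem library. Values in CPM were normalized with TMM, which scales each library to the bulk of its genes. In such bulk samples, fewer cells of a type and less RNA per cell cannot be told apart.

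Promoters are shown for 4 of the members that the results turn on, with the 190 bases before and the 10 bases from the transcription start. They come from RefSeq on build GRCm38.p6 and run 5′ to 3′ on the strand of the gene. Capitals mark matches to core letters of 2 factors that are known to drive nuclear respiratory genes, NRF1 (GCATGCGC) and GABP (CCGGAAGT), searched on both strands.
Uqcr11, chr10:80406812-80407011, minus strand: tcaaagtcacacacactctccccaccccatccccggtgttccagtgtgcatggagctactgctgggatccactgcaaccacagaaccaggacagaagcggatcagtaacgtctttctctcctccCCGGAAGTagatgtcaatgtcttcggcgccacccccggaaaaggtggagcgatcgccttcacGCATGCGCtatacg
Cox6a1, chr5:115348949-115349148, minus strand: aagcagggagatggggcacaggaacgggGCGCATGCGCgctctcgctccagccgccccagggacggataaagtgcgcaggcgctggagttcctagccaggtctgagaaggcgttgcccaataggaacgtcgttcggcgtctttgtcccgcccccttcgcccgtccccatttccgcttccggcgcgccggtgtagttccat
Cox8a, chr19:7217607-7217806, minus strand: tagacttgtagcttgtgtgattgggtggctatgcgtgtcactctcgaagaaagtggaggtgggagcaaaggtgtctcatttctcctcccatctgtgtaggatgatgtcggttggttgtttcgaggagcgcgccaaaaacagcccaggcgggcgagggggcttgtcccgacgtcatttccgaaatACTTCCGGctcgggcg
Atp5d, chr10:80142085-80142284, plus strand: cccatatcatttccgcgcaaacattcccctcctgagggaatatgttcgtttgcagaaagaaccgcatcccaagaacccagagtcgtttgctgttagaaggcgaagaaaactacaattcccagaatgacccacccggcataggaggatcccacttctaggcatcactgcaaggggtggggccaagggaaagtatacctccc

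The NRF1 and GABP letters both stand in the Uqcr11 promoter, the NRF1 letters match Cox6a1 on both strands at overlapping positions, the GABP letters match Cox8a on the opposite strand, and Atp5d holds neither. Over the longer window of 250 bases before to 50 after the start, 34 of the 47 members had an entry. The NRF1 letters stood in 7 of the 34 (20.6%), against 2.8% of all 27025 promoters of that length. The GABP letters stood in 4 members (11.8%), against 4.0% of all promoters. The core letters of YY1 (AAGATGGC) stood in 1 member (2.9%), against 2.88% of all. Of the 34, 11 (32.4%) held at least 1 of the 3, against 9.15% of all promoters. A match to such letters describes the sequence and is not a measured binding site.

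Within each complex the members differed widely in level. Levels between genes are compared per kilobase of the principal transcript, as the median CPM over all libraries of a region, brainstem first and hippocampus second. In complex II the catalytic flavoprotein Sdha stood at 182.3 and 140.6 CPM per kilobase and the iron-sulfur subunit Sdhb at 97.6 and 82.1. The membrane anchors were lower, Sdhd at 86.1 and 65.3 and Sdhc at 29.5 and 20.4 CPM per kilobase.

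In complex III the hinge protein Uqcrh was the most abundant member, at 405.2 and 219.3 CPM per kilobase. Uqcrb, Uqcr10 and Uqcr11, small subunits around the core, had 151.2, 149.8 and 94.0 in brainstem and 114.1, 148.6 and 139.1 in hippocampus. The core proteins Uqcrc1 (143.5 and 116.4) and Uqcrc2 (104.6 and 95.7) stood near the electron carriers of the complex, cytochrome c1 from Cyc1 (95.2 and 73.8) and the Rieske iron-sulfur protein from Uqcrfs1 (80.2 and 64.6 CPM per kilobase). Uqcrq, another small subunit, was the lowest at 21.1 and 29.7 CPM per kilobase on a principal transcript of 1521 bases, and its other coding transcripts have 405 and 504 bases, so this level depends on the transcript chosen.

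In complex IV, Cox4i1, the largest nuclear subunit, stood at 612.5 and 437.6 CPM per kilobase, second among all members in both regions. Cox6c followed with 461.6 and 345.7, and Cox6b1, which faces the intermembrane space where cytochrome c docks, with 315.2 and 213.1 CPM per kilobase. The small membrane subunits Cox7c, Cox8a, Cox7a2, Cox6a1 and Cox7b had 258.7, 235.8, 225.4, 210.7 and 201.0 in brainstem and 208.8, 331.3, 156.0, 261.5 and 115.1 in hippocampus. Cox7a2l, which ties complexes III and IV together in supercomplexes, had 161.1 and 132.8 CPM per kilobase. The matrix-side subunits Cox5b (135.0 and 111.4) and Cox5a (53.1 and 31.0) were the lowest of the tested members of complex IV.

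In complex V, Atp5b, the catalytic beta subunit, was the most abundant of all members at 700.3 and 539.0 CPM per kilobase, and Atp5a1, the alpha subunit of the same head, had 396.1 and 354.3. In the central stalk, Atp5c1 (gamma) stood at 224.9 and 182.3, Atp5e (epsilon) at 148.9 and 141.9 and Atp5d (delta) at 88.8 and 102.7 CPM per kilobase. The stator genes were Atp5h (325.0 and 227.5), Atp5f1 (199.3 and 149.1), Atp5j (191.2 and 128.9) and Atp5o (155.6 and 100.4). The small membrane subunits Atp5l (237.7 and 214.8), Atp5mpl (230.9 and 143.0), Atp5k (190.2 and 135.1) and Atp5j2 (115.6 and 79.0) completed the complex, and Atp5s, an accessory factor, was the lowest tested member at 14.8 and 11.8 CPM per kilobase.

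The c subunit, which forms the rotating ring of the ATP synthase, comes from 3 genes that encode the same mature protein. Atp5g3 led with 322.3 CPM per kilobase in brainstem and 233.1 in hippocampus, Atp5g2 had 178.6 and 181.2, and Atp5g1 had 31.5 and 26.7 on a principal transcript of 4715 bases, where another of its coding transcripts has 596. All of the 75-base windows of the principal transcript of Atp5g2, of 441 bases, recur in transcripts of other genes, and its other coding transcripts, of 731, 753 and 635 bases, were not checked for such windows. The following window of its coding sequence, bases 183 to 257 of the transcript in lower case, was found in 2 pseudogenes.
Atp5g2, window of the coding sequence: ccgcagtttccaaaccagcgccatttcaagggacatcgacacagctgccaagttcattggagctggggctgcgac
Gm10175 and Gm10231, its processed pseudogenes, carried a median of 90.5% and 76.2% of the Atp5g2 count in brainstem and of 89.4% and 77.0% in hippocampus. Both counts were below that of Atp5g2 in every library, at most 94.9% of it, and the value of Atp5g2 is uncertain to the extent that reads were assigned to these copies. Shared windows also made up 76.0% of Atp5l, 50.4% of Cox7c, 40.3% of Atp5h and 39.1% of Atp5o, so the same holds for these genes.

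The isoforms of other tissues had low counts in both regions. Cox4i2, the lung form of Cox4i1, stood at 1.47 and 0.989 CPM per kilobase, Cox6b2, the testis form of Cox6b1, at 3.70 and 2.47, and Cox7b2, a form of Cox7b, at 0.711 and 1.01. The muscle and heart forms differed between the regions. Cox6a2, the muscle form of Cox6a1, had 0.0684 to 0.381 CPM in the WT-SD brainstem libraries and 1.39 to 2.81 CPM in the WT-SD hippocampus libraries, and its regions did not overlap over all libraries either. Cox7a1, the muscle form of Cox7a2, went the other way, with 2.30 to 4.08 CPM in brainstem and 0.372 to 1.21 CPM in hippocampus, again with no overlap over all libraries. Cox8b, the muscle form of Cox8a, had a WT-SD median of 1.12 CPM in brainstem and 0.226 in hippocampus with overlapping libraries.

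Most tested members were lower in hippocampus than in brainstem. With both regions normalized together, the median over the 41 members of the log2 ratio of hippocampus to brainstem in WT-SD was -0.35, against 0.047 over the 12619 genes tested in both. Without overlap between the WT-SD libraries of the regions, 27 members were lower in hippocampus and 2 higher, while 21.8% of all genes were lower and 29.7% higher without overlap. Cox7b (-0.74), Uqcrh (-0.73) and Cox5a (-0.67 on the log2 scale) were the farthest below brainstem.

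The 2 members that were higher in hippocampus were Cox8a and Cox6a1. Cox8a had 120.2 to 135.0 CPM in the WT-SD brainstem libraries and 166.0 to 204.6 in hippocampus (log2 ratio 0.57), and Cox6a1 had 106.8 to 129.3 and 138.2 to 184.4 CPM (0.40). Uqcr11 (0.47), Uqcrq (0.29), Atp5d (0.25) and Atp5g2 (0.15) also had higher medians in hippocampus, with overlapping libraries. Over all genes the log2 ratio rose by 0.16 per 10% of GC content, and the median GC content was 58.6% for Cox8a and Cox6a1 and 49.9% for the 27 lower members. The part of base composition in the difference between regions was not tested.

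**Figure D1:**
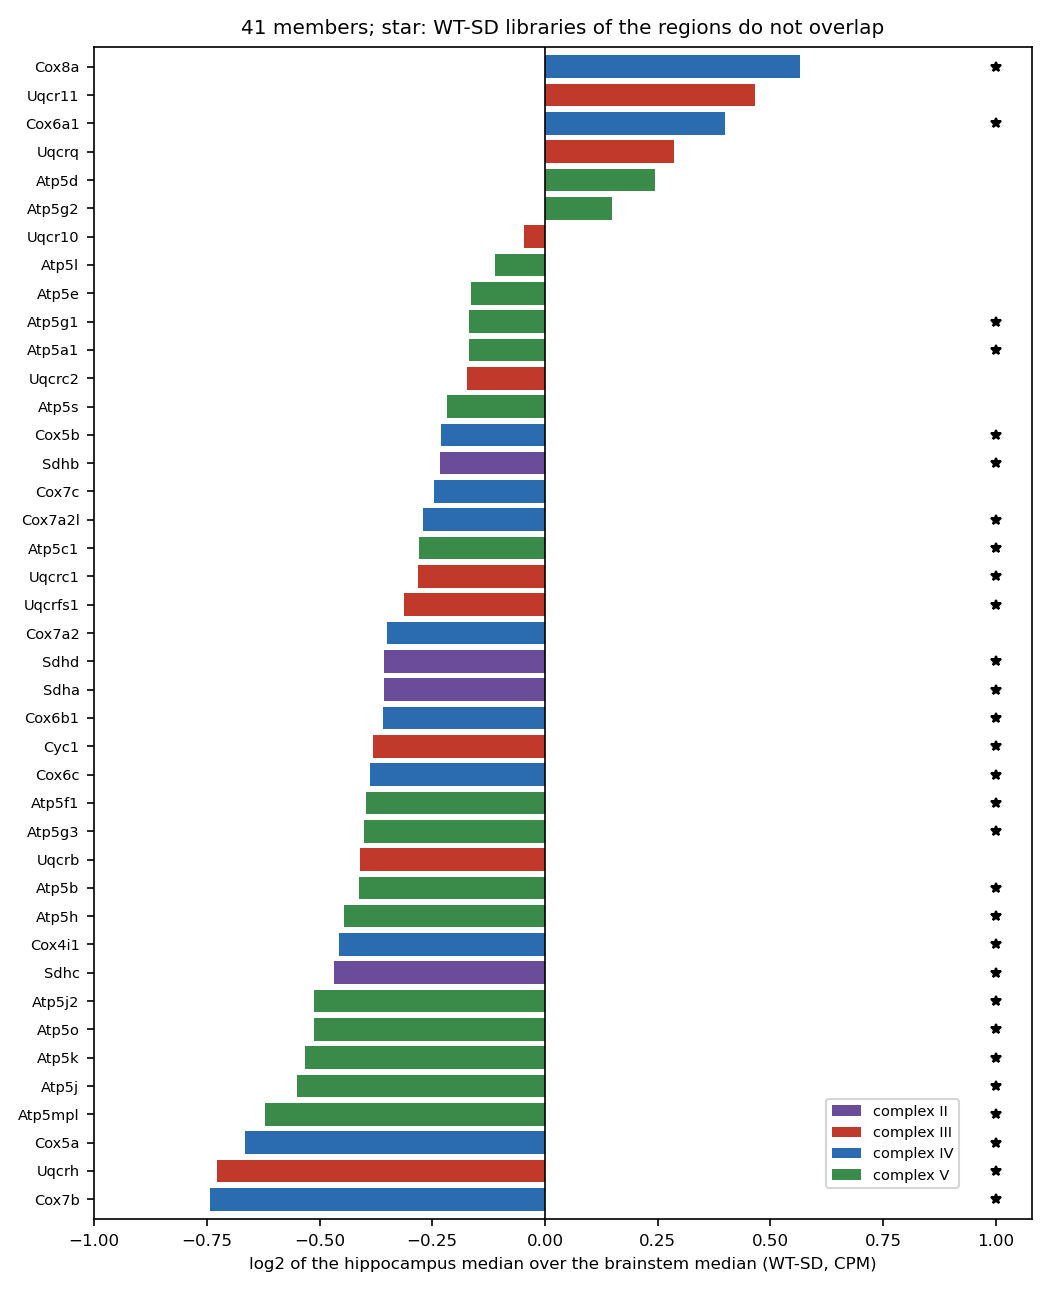
Log2 ratio of the hippocampus median to the brainstem median (CPM, WT-SD libraries, both regions normalized together) for the 41 tested members, coloured by complex, with a star where the libraries of the regions do not overlap. Cox8a (0.57), Uqcr11 (0.47) and Cox6a1 (0.40) lie on the hippocampus side, and 27 starred members lie on the brainstem side.

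The groups were then compared within each region. For each region, 1 model held the 4 groups and 4 surrogate variables and was tested by quasi-likelihood in edgeR. Surrogate variables are covariates estimated from the counts, meant to take up variation that the groups do not explain. They can overlap with the groups, and whether they took up part of a group difference was not tested. Over all genes in hippocampus, the median standard error for TG-HFD against WT-HFD was 0.0776 with 0, 0.0656 with 2 and 0.0818 with 4. For TG-SD against WT-SD it was 0.0777, 0.0661 and 0.0627. A gene was called when its adjusted p was at most 0.05 and its log2 fold change at least 0.3 in size. The 5 comparisons per region share groups, so they are not independent of each other.

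By this fit, 0 of 41 members were called in each of the 10 comparisons. In brainstem the calls over all genes were 0.142% for TG-SD against WT-SD, 0.0525% for TG-HFD against WT-HFD, 0% for WT-HFD against WT-SD, 0.0075% for TG-HFD against TG-SD and 0.0075% for the interaction of genotype and diet. In hippocampus they were 0.098%, 0.226%, 0%, 0% and 0% in the same order. DESeq2 with the same surrogate variables also called 0 members in all 10.

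At an unadjusted p of at most 0.05, edgeR found between 0 and 6 members per comparison. In brainstem these were 5 of 41 for TG-SD against WT-SD (all genes 10.5%), 0 for TG-HFD against WT-HFD (5.59%), 4 for WT-HFD against WT-SD (5.43%), 3 for TG-HFD against TG-SD (6.91%) and 1 for the interaction (4.83%). In hippocampus they were 5 (9.08%), 6 (11.3%), 1 (6.41%), 2 (7.08%) and 5 (5.98%) in the same order. As a share of the members, the counts for TG-SD against WT-SD (12.2% in both regions) and for TG-HFD against WT-HFD in hippocampus (14.6%) lay near those of all genes. The shares for the interaction in hippocampus (12.2%) and for WT-HFD against WT-SD in brainstem (9.8%) lay above those of all genes, with 5 and 4 members.

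The estimates were small. The 95% interval of the log2 fold change lay wholly between -0.3 and 0.3 for at least 38 of the 41 members in each comparison, and for all 41 in TG-HFD against WT-HFD of brainstem. The median over the members lay between -0.037 and 0.020 in brainstem and between -0.045 and 0.006 in hippocampus, where the median of all tested genes lay within 0.008 of 0 in each comparison. Without surrogate variables some values for TG-HFD against WT-HFD were larger. DESeq2 then gave -0.65 for Uqcr11 in brainstem and edgeR gave -0.61 for Uqcrq in hippocampus.

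Complex II showed no call in either region. Sdhd, a membrane anchor, had the smallest p of the complex for TG-HFD against WT-HFD in both. In hippocampus Sdhd stood at 73.8, 81.4 and 90.3 CPM (lowest, median and highest) in WT-SD, 73.2, 77.9 and 83.3 in WT-HFD, 72.0, 75.8 and 84.0 in TG-SD and 68.7, 76.9 and 81.5 in TG-HFD. The groups overlapped throughout. With 4 surrogate variables, its log2 fold change of TG-HFD against WT-HFD was -0.12 ± 0.050 (SE, n = 6 and 6, edgeR adjusted p = 0.332). All 4 genes of the complex were below 0 there by that fit, with a median of -0.085. By mean CPM in TG-HFD and WT-HFD, Sdhd (75.19 and 77.98) and Sdhb (88.95 and 94.79) were lower. Sdha (400.6 and 385.5) was higher and Sdhc (63.05 and 62.84) about equal. In brainstem Sdhd had 106.9, 110.5, 111.3, 116.9 and 132.0 CPM in the WT-SD libraries, and 105.3, 118.4 and 130.1 in WT-HFD, 106.2, 111.8 and 129.1 in TG-SD and 96.1, 106.7 and 113.1 in TG-HFD. Its log2 fold change was -0.031 ± 0.043 (edgeR adjusted p = 0.974).

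Sdhc, the other anchor, was below 0 in TG-SD against WT-SD in both regions at an unadjusted p under the threshold, with log2 fold changes of -0.097 in brainstem and -0.14 in hippocampus. By the same fit, the catalytic Sdha differed least of the complex between WT-HFD and TG-HFD in hippocampus, at -0.008.

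Complex III held Uqcrq, Uqcr10 and Uqcr11, small subunits whose values for TG-HFD against WT-HFD depended on the fit. For TG-HFD against WT-HFD in brainstem, 8 of its 9 genes lay below 0 with 4 surrogate variables, with a median of -0.042. Without surrogate variables all 9 did, with a median of -0.19. Averaged over the 9 genes, the log2 CPM of complex III in brainstem was 6.76 ± 0.11 (SD, n = 5) in WT-SD, 6.91 ± 0.21 (n = 6) in WT-HFD, 6.71 ± 0.11 in TG-SD and 6.61 ± 0.16 in TG-HFD. WT-HFD was the highest group and TG-HFD the lowest, and their ranges (6.64 to 7.16 and 6.33 to 6.77) overlapped. The same groups were highest and lowest for complex IV (7.384 ± 0.197 and 7.211 ± 0.138) and complex V (7.393 ± 0.15 and 7.25 ± 0.116), also with overlap. So they were for nuclear genes of complex I (6.344 and 6.135) and mitochondrial ribosomal protein genes (4.645 and 4.529). In complex II, WT-SD was the highest group (7.388) and TG-HFD the lowest (7.317).

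Uqcrq, which lies near the cytochrome b of the complex, had 28.7, 32.5, 37.9, 38.2 and 41.1 CPM in the brainstem libraries of WT-SD. It stood at 29.1, 51.4 and 70.0 in WT-HFD, 22.4, 30.6 and 40.1 in TG-SD and 17.1, 29.9 and 45.1 in TG-HFD. WT-HFD was the highest group by its median, and its lowest library, replicate 8, stood just under the median of TG-HFD. In hippocampus Uqcrq had 36.2, 43.4 and 57.5 CPM in WT-SD, 44.0, 54.4 and 68.4 in WT-HFD, 21.1, 40.8 and 53.8 in TG-SD and 29.5, 35.5 and 44.0 in TG-HFD. There the highest TG-HFD library (43.95) and the lowest WT-HFD library (43.96) came within 0.1 CPM of each other without overlap, and TG-SD spread over both.

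With 4 surrogate variables the log2 fold change of Uqcrq between TG-HFD and WT-HFD was -0.073 ± 0.092 in brainstem (edgeR adjusted p = 0.972) and -0.037 ± 0.080 in hippocampus (0.910). Without them it was -0.72 ± 0.19 in brainstem (edgeR adjusted p = 0.115) and -0.61 ± 0.16 in hippocampus (0.0187), so Uqcrq was called lower in hippocampus by that fit. With 2 surrogate variables it was -0.42 in brainstem (edgeR adjusted p = 0.0534) and -0.62 in hippocampus (0.00104). The move in hippocampus thus came between 2 and 4 surrogate variables.

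Uqcr10 and Uqcr11, small subunits at the edge of the complex, followed the same order of groups in brainstem. Uqcr10 had 62.4, 69.5, 69.5, 72.9 and 75.2 CPM in WT-SD, 65.0, 88.8 and 108.1 in WT-HFD, 41.1, 68.2 and 70.7 in TG-SD and 37.1, 63.8 and 71.1 in TG-HFD. Uqcr11 had 36.3, 46.4, 47.4, 48.6 and 51.1 CPM in WT-SD, 42.8, 62.2 and 74.3 in WT-HFD, 27.3, 42.0 and 44.0 in TG-SD and 19.5, 40.5 and 49.9 in TG-HFD. All 4 groups overlapped in both genes.

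For TG-HFD against WT-HFD in brainstem, the log2 fold change of Uqcr10 was -0.10 ± 0.060 with 4 surrogate variables (edgeR adjusted p = 0.950) and -0.53 ± 0.14 without (0.115). That of Uqcr11 was -0.094 ± 0.060 (edgeR adjusted p = 0.950) and -0.64 ± 0.16 (0.115). Uqcr11 was called with 2 surrogate variables in both regions, at -0.37 in brainstem (edgeR adjusted p = 0.0246) and -0.35 in hippocampus (0.000739), where that fit called 0.187% and 4.78% of all genes. The other members of the complex, Cyc1, Uqcrfs1, Uqcrc1, Uqcrc2, Uqcrb and Uqcrh, were called in none of these fits. Cyc1 in hippocampus was the member of the complex with the smallest p, at -0.13 with 4 surrogate variables (edgeR adjusted p = 0.258).

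**Figure D2:**
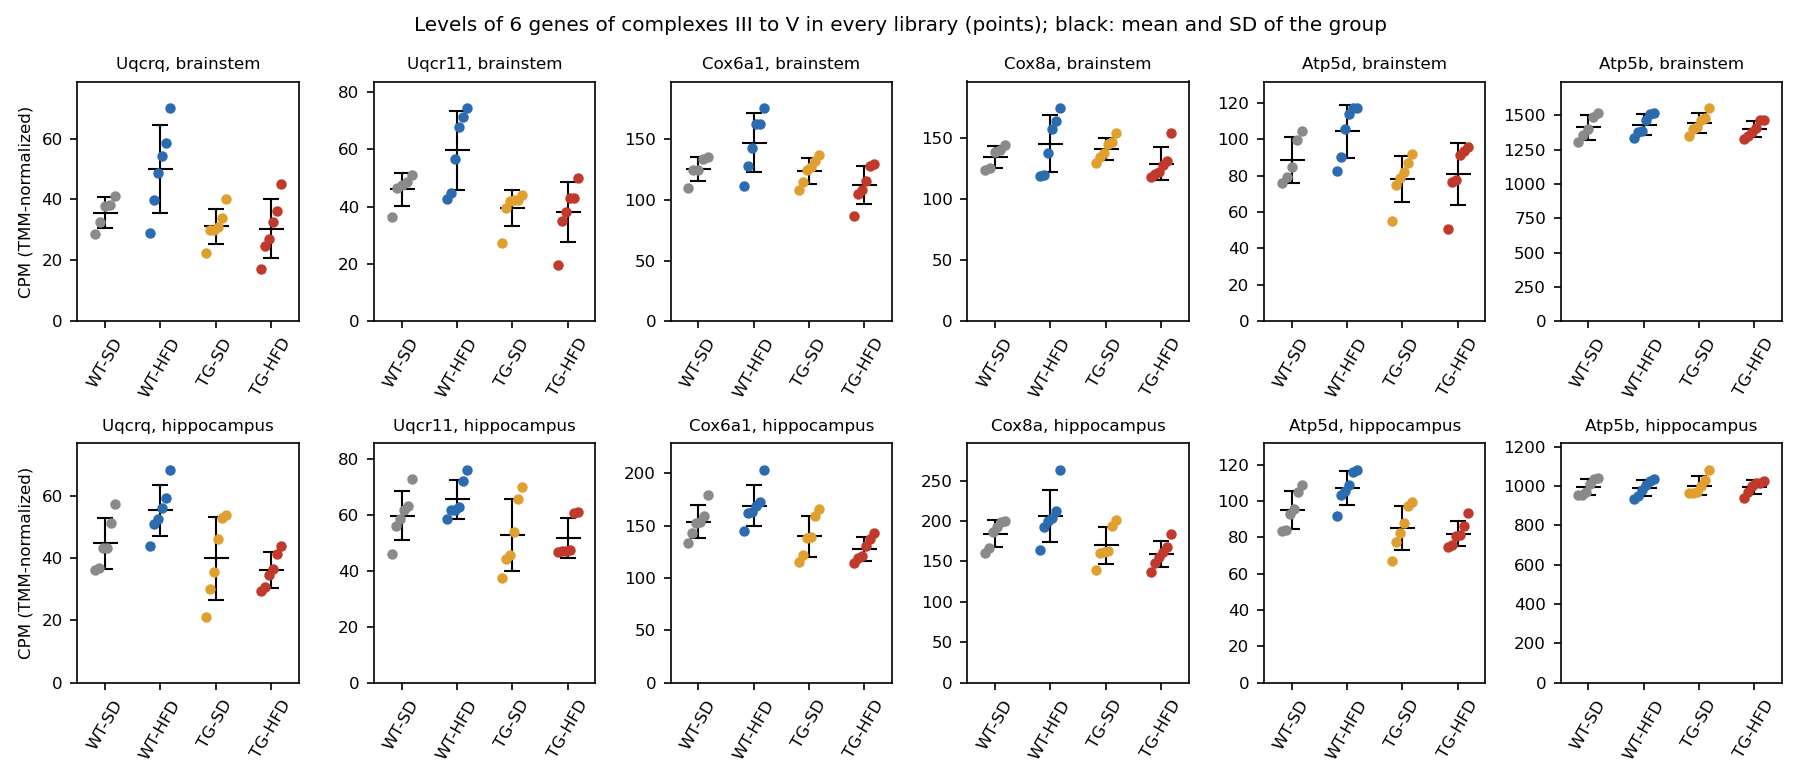
TMM-normalized CPM of 5 members that were called in hippocampus with 0 or 2 surrogate variables, and of Atp5b, the most abundant member, in every library (points) of the 4 groups, with the mean and SD of each group in black. In hippocampus the TG-HFD libraries of Uqcrq (29.5 to 44.0 CPM) and Cox6a1 (114.5 to 143.3) lie below those of WT-HFD, and the groups of Atp5b overlap.

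Complex IV held 2 of the members with the smallest p in hippocampus, both small membrane subunits. Cox6a1 had 133.6, 153.4 and 179.8 CPM in WT-SD, 144.9, 165.8 and 203.6 in WT-HFD, 115.6, 138.4 and 165.8 in TG-SD and 114.5, 125.5 and 143.3 in TG-HFD. All TG-HFD libraries lay below all WT-HFD libraries, and TG-SD overlapped with both. Of the 41 members, Cox6a1 and Uqcrq were the ones whose TG-HFD and WT-HFD libraries did not overlap in hippocampus, both lower in TG-HFD, beside 4.15% of all tested genes. In brainstem 0 members were free of overlap in this comparison (0.682% of all genes).

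The log2 fold change of Cox6a1 in hippocampus was -0.20 ± 0.048 with 4 surrogate variables (edgeR adjusted p = 0.0501), just outside the threshold on p and under that on the fold. DESeq2 with the same surrogate variables gave -0.20 (DESeq2 adjusted p = 0.0380), also under the fold threshold. Without surrogate variables it was -0.41 ± 0.084 (edgeR adjusted p = 0.00446), a call. In brainstem Cox6a1 had 110.1, 124.3, 124.7, 134.0 and 135.0 CPM in WT-SD, 111.3, 152.6 and 175.5 in WT-HFD, 107.9, 125.8 and 136.6 in TG-SD and 87.1, 111.8 and 129.4 in TG-HFD, with overlapping groups. Its log2 fold change there was -0.060 ± 0.049 (edgeR adjusted p = 0.957), and -0.39 ± 0.097 without surrogate variables (0.115).

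Cox8a in hippocampus had 160.5, 189.4 and 199.4 CPM in WT-SD, 164.0, 201.9 and 263.5 in WT-HFD, 139.7, 162.5 and 200.8 in TG-SD and 137.4, 158.2 and 183.4 in TG-HFD. WT-HFD and TG-HFD overlapped at the lower end of WT-HFD. The log2 fold change was -0.24 ± 0.070 (edgeR adjusted p = 0.144), and -0.38 ± 0.091 without surrogate variables (0.0106), a call. In brainstem Cox8a was at 0.036 ± 0.059 with 4 surrogate variables (edgeR adjusted p = 0.981). Without them it lay between -0.235 and -0.119 when each TG-HFD or WT-HFD library was left out. Leaving out WT-HFD replicate 8, the lowest WT-HFD library for both genes, made both calls in hippocampus with 4 surrogate variables, at -0.30 for Cox6a1 and -0.40 for Cox8a, beside 0.475% of all genes.

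Cox6b1 had the smallest p of complex IV in brainstem for TG-HFD against WT-HFD, at 0.061 ± 0.038 (edgeR adjusted p = 0.950). It stood at 183.2, 184.4, 189.7, 219.4 and 243.1 CPM in WT-SD, 176.1, 202.4 and 235.9 in WT-HFD, 199.6, 212.0 and 240.5 in TG-SD and 164.8, 183.8 and 222.2 in TG-HFD, with overlap among all groups. For the diet in WT mice, the fit with 4 surrogate variables gave an unadjusted p of at most 0.05 to these brainstem members: Atp5k (-0.16), Cox6b1 (-0.11), Cox4i1 (-0.10) and Cox6c (-0.090). Each of them had a higher median CPM in WT-HFD than in WT-SD, such as 531.8 and 476.3 for Cox4i1. Their mean CPM was higher in WT-HFD for Cox4i1 (534.6 and 508.6) and lower for the others, such as Atp5k (75.38 and 80.3). Cox6c was also the lowest member for TG-HFD against TG-SD in brainstem, at -0.13.

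In complex V, Atp5d, the delta subunit of the central stalk, was the member called without surrogate variables. In hippocampus it had 83.3, 94.3 and 109.1 CPM in WT-SD, 91.6, 107.2 and 117.3 in WT-HFD, 67.1, 85.2 and 99.2 in TG-SD and 74.9, 81.0 and 93.4 in TG-HFD. The highest TG-HFD library lay just above the lowest WT-HFD library. The log2 fold change was -0.091 ± 0.046 with 4 surrogate variables (edgeR adjusted p = 0.457) and -0.38 ± 0.083 without (0.00599). In brainstem it was 0.022 ± 0.042 (edgeR adjusted p = 0.985) and -0.37 ± 0.13 (0.149).

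Of the c subunit genes, Atp5g3 had 146.3, 169.5 and 177.1 CPM in WT-SD of hippocampus, 156.7, 173.3 and 188.8 in WT-HFD, 146.6, 152.0 and 176.5 in TG-SD and 142.6, 156.4 and 161.3 in TG-HFD. The last group overlapped with WT-HFD at its upper end. The log2 fold change of Atp5g3 was -0.14 ± 0.044 (edgeR adjusted p = 0.154), that of Atp5g1 -0.045 ± 0.053 (0.801) and that of Atp5g2 0.036 ± 0.049 (0.836). In brainstem the same values were -0.027, -0.037 and 0.019. Atp5o, which joins the stalk to the head, had the smallest p of complex V in brainstem, at 0.062 ± 0.043 (edgeR adjusted p = 0.950). It stood at 116.2, 121.4, 126.7, 145.9 and 156.4 CPM in the WT-SD libraries, 116.9, 143.0 and 163.1 in WT-HFD, 130.8, 146.8 and 158.9 in TG-SD and 111.6, 124.0 and 154.9 in TG-HFD, with overlap among all groups.

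The accessory Atp5s was the member with the largest interaction in hippocampus, at 0.23 on the log2 scale and an unadjusted p under the threshold. It had a median of 18.4 CPM in WT-SD, 16.4 in WT-HFD, 16.01 in TG-SD and 17.7 in TG-HFD there, and all groups overlapped. Cox8a (-0.18), Cyc1 (-0.13), Cox6a1 (-0.12) and Atp5g3 (-0.10) had interactions of the other sign at that threshold. In brainstem, Sdhc (0.12) was the member with such a p for the interaction.

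**Figure D3:**
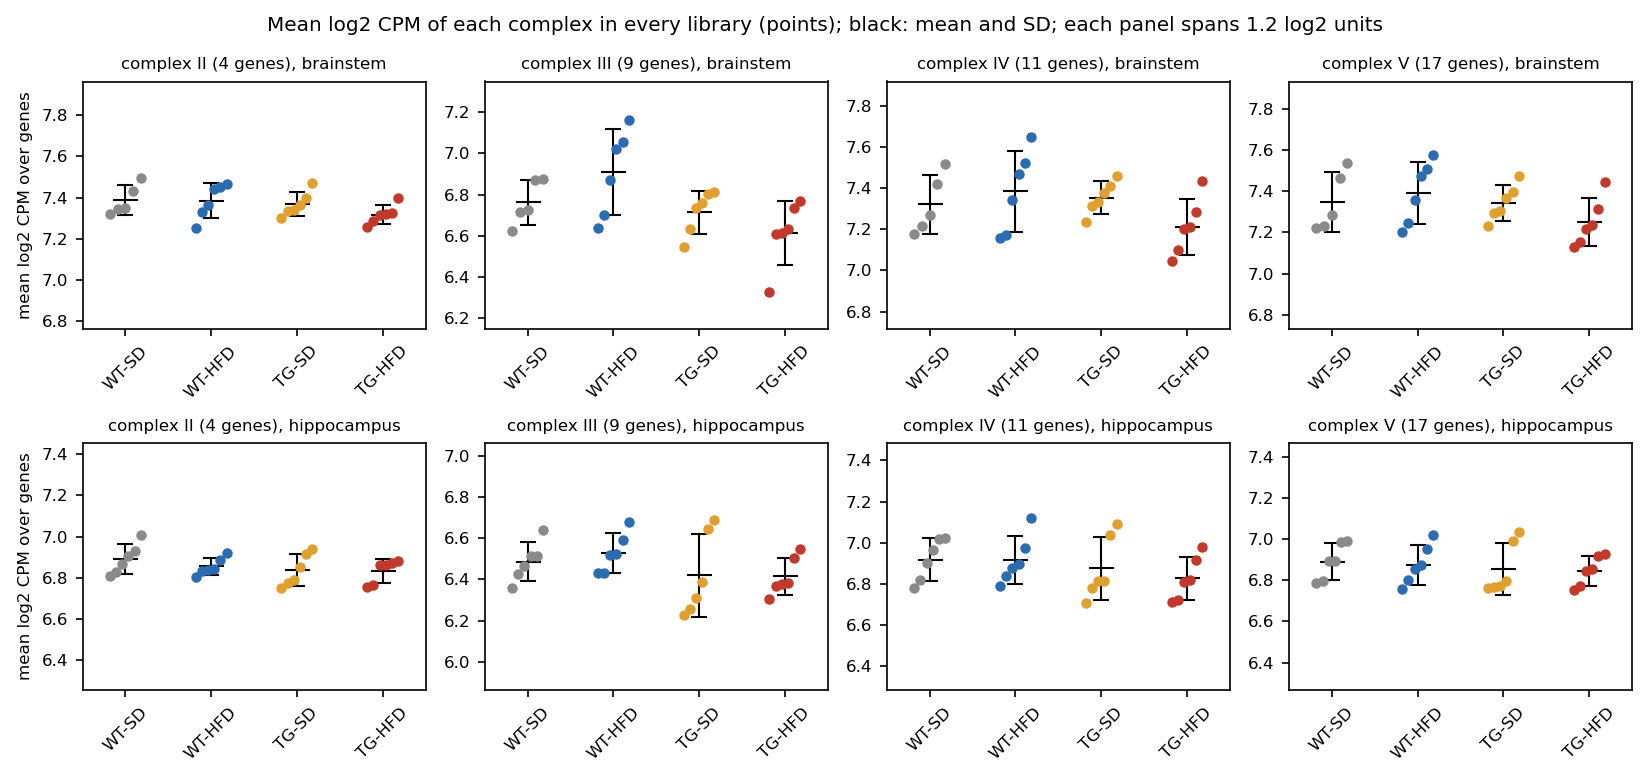
Mean log2 CPM over the tested genes of each complex in every library (points) with the mean and SD of the group, in brainstem (top) and hippocampus (bottom). In brainstem WT-HFD is widest and highest for complex III (6.91 ± 0.21) and TG-HFD lowest (6.61 ± 0.16), with overlapping libraries in every panel. The same groups are highest and lowest by their mean for complexes IV and V in brainstem.

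The count of called members depended on the fit in TG-HFD against WT-HFD. Without surrogate variables, edgeR called 4 of 41 members in hippocampus, Uqcrq, Cox6a1, Atp5d and Cox8a, beside 3.88% of all genes. All 4 were lower in TG-HFD, where 3.56% of all genes were called lower. In the other 4 comparisons of hippocampus 0 members were called, beside 0.0753% of all genes for TG-SD against WT-SD and 0% for the other 3. At an unadjusted p of at most 0.05 there were 11 members (10 of them lower), beside 21.9% of all genes tested. Leaving out WT-HFD replicate 5 left Cox6a1 and Atp5d as the called members, beside 2.83% of all genes. With each TG-HFD or WT-HFD library left out, between 23 and 29 of the 41 members lay below 0 in hippocampus. Their median log2 fold change then ran from -0.059 to -0.005. With all libraries, 48.9% of all genes lay below 0. DESeq2 without surrogate variables called 4 members in hippocampus (4.14% of all genes), and edgeR with a length correction called 5 (3.96%).

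In brainstem, 0 of 41 members were called without surrogate variables in any comparison, beside 0.03% of all genes for TG-SD against WT-SD, 0.0375% for TG-HFD against WT-HFD and 0% for the other 3. Yet 39 of the 41 lay below 0 for TG-HFD against WT-HFD, with a median log2 fold change of -0.14, where 47.9% of all genes lay below 0 with a median of 0.008. An unadjusted p of at most 0.05 was reached by 17 members, all lower in TG-HFD (41.5% of the members), beside 19.7% of all genes. DESeq2 without surrogate variables called 3 members in brainstem, Cox6a1, Uqcr11 and Uqcr10, beside 0.652% of all genes. Leaving out WT-HFD replicate 8, edgeR called these and Uqcrq, beside 2.05%. Leaving out TG-HFD replicate 3, a library with low values for complex III, left 0 called and a median of -0.13.

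The other comparisons of brainstem without surrogate variables share groups with this one. In TG-HFD against TG-SD 39 of the 41 members also lay below 0, with a median of -0.099 (48.5% of all genes below 0). For the interaction 40 did, with a median of -0.17 (50.2% of all genes). In WT-HFD against WT-SD 11 of the 41 lay below 0, with a median of 0.042 (52.7% of all genes), and in TG-SD against WT-SD 20 did, with a median of 0.003 (51.4%).

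**Figure D4:**
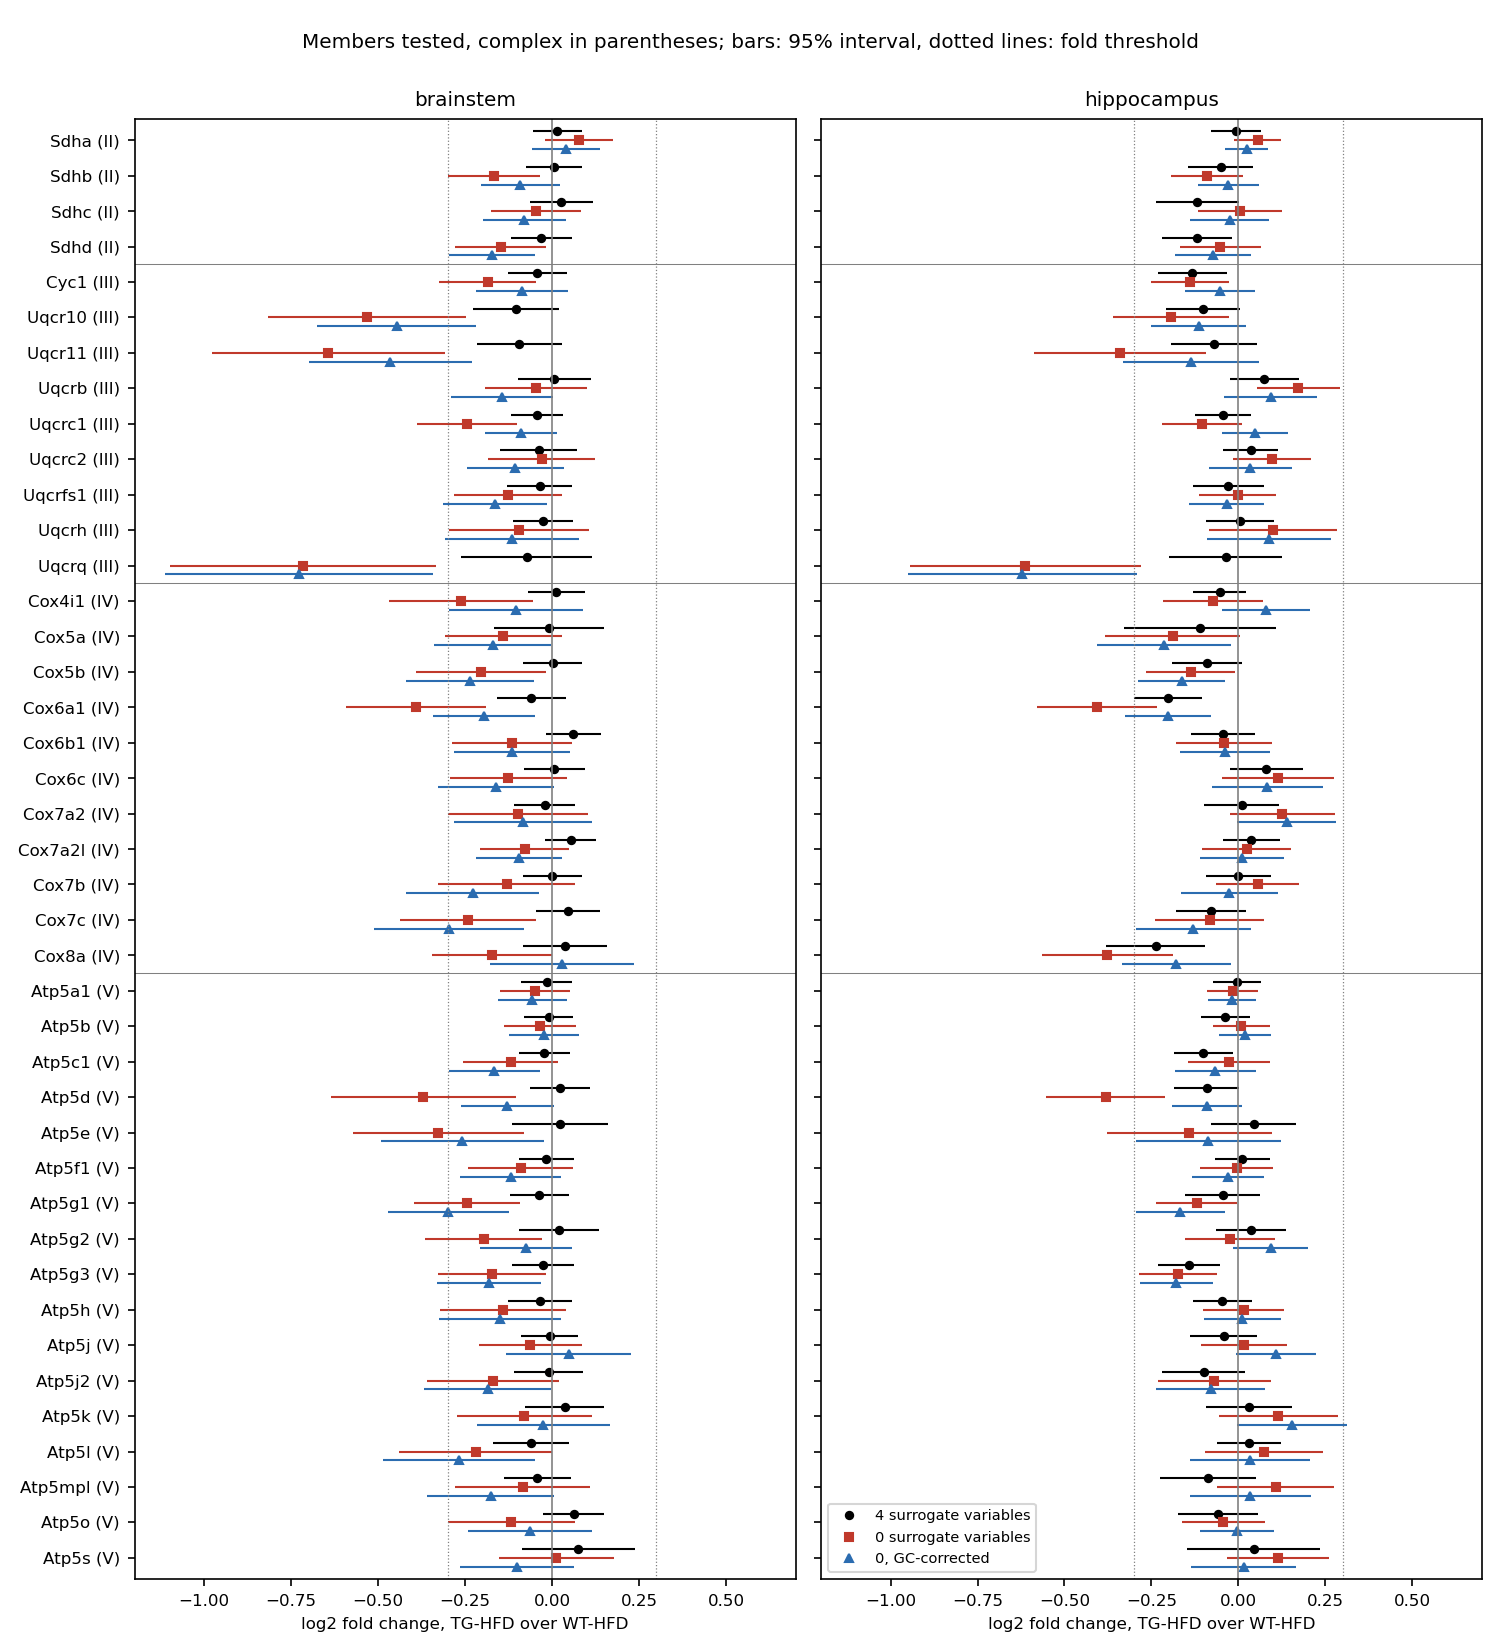
Log2 fold change of TG-HFD over WT-HFD (points) with its 95% interval (bars) for the 41 tested members, complex in parentheses, with 4 surrogate variables, with 0, and with 0 after GC correction. Dotted lines mark the fold threshold of 0.3, and the interval of Uqcrq lies below it in brainstem without surrogate variables but reaches across 0 with 4.

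Libraries also differed in how their counts varied with GC content. For each library, log2 deviations from the average library were regressed on GC content, and the slope per 10% had a median of 0.138 in WT-HFD and -0.0198 in TG-HFD of brainstem. In hippocampus it was 0.125 and -0.0592. The steepest negative slopes of brainstem were those of TG-HFD replicate 3 (-0.335) and TG-SD replicate 1 (-0.296). WT-HFD replicate 8 had the lowest slope of its group in both regions, -0.0016 in brainstem and -0.0194 in hippocampus. The slope per doubling of transcript length had a median of -0.0223 in WT-HFD and 0.0224 in TG-HFD of brainstem. In hippocampus it was 0.0098 and 0.0054. WT-HFD replicate 1 had the lowest length slope of brainstem (-0.1117) and the highest complex III mean (7.163). TG-HFD replicate 3 had the highest length slope (0.1043) and the lowest complex III mean (6.326). The part of transcript length in the values of the members was not tested.

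Over the 41 members, the log2 fold change without surrogate variables fell with GC content, with Spearman's rho of -0.47 in brainstem and -0.55 in hippocampus, where all genes gave -0.60 and -0.62. These values describe the members, which share libraries and are not independent. With a GC correction in place of surrogate variables, rho was 0.26 in brainstem and -0.10 in hippocampus. Cox6a1, Cox8a, Atp5d and Uqcr11 have a GC content of 58.8%, 58.5%, 61.1% and 58.9%, against a median of 50.2% over the members. Uqcrq, also called without surrogate variables in hippocampus, has 50.2%, and Cox4i1 (57.6%) and Uqcrc1 (57.5%) were not called.

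**Figure D5:**
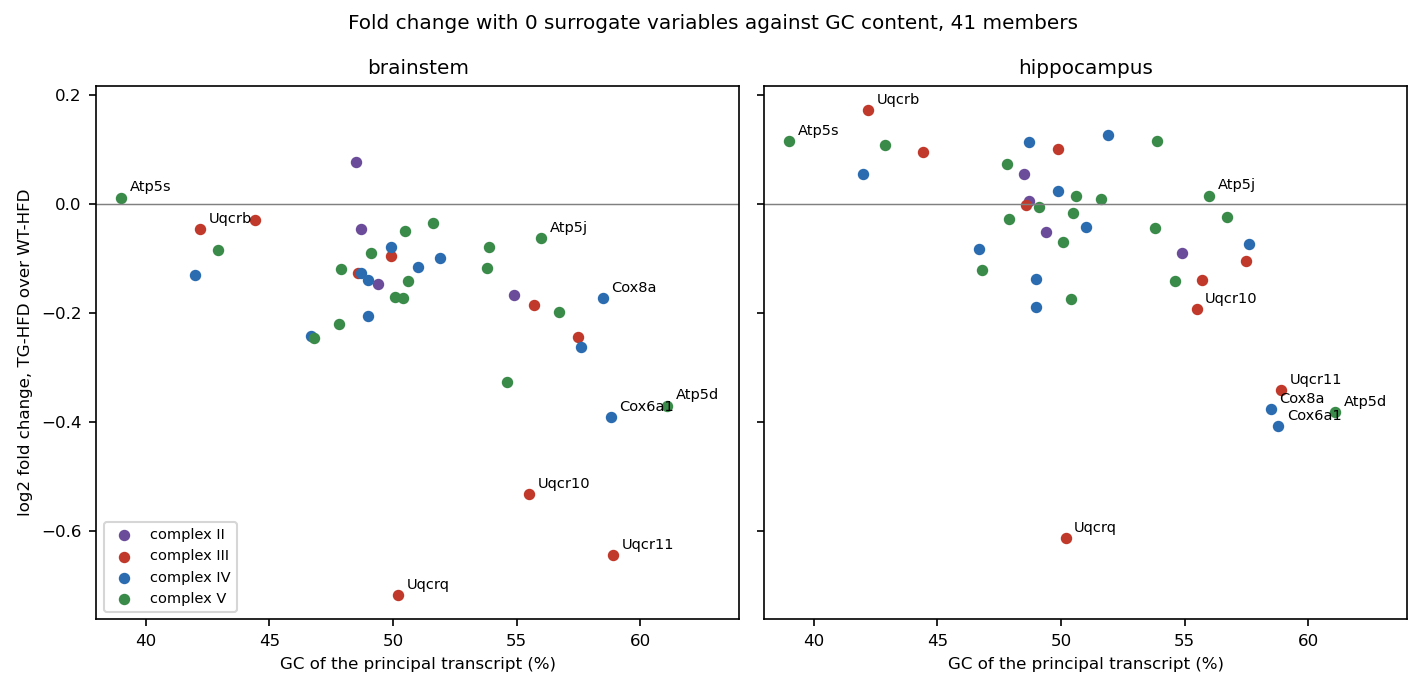
Log2 fold change of TG-HFD over WT-HFD without surrogate variables against the GC content of the principal transcript, for the 41 tested members coloured by complex. Cox6a1, Cox8a, Atp5d and Uqcr11 lie at the GC-rich lower end, while Uqcrq, at 50.2%, lies lowest in brainstem and hippocampus (-0.72 and -0.61).

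After the GC correction, 0 of 41 members were called in either region, beside 0.03% of all genes in brainstem and 0.58% in hippocampus. In hippocampus Cox6a1 moved to -0.20 (edgeR adjusted p = 0.105), Cox8a to -0.18 (0.322) and Atp5d to -0.090 (0.473). Uqcrq stayed at -0.62 with an edgeR adjusted p of 0.0585, under a correction that used the GC content of its principal transcript, 50.2%. Its coding transcript of 405 bases has 57.8%, so the correction of Uqcrq depends on the transcript. In brainstem 38 of the 41 members lay below 0 after the correction, with a median of -0.13, and 16 had an unadjusted p of at most 0.05, beside 12.3% of all genes. In hippocampus 7 did, beside 12.2% of all genes.

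Markers of other cell types were compared beside these values. The 5 oligodendrocyte markers, all with counts, summed to between 14680 and 20360 CPM in WT-HFD of brainstem and to between 11980 and 16580 in TG-HFD. In hippocampus they summed to between 2836 and 3872 in WT-HFD and to between 2941 and 3913 in TG-HFD. The 6 neuron markers summed to between 4085 and 4490 CPM in WT-HFD of brainstem and to between 4181 and 4725 in TG-HFD, and to between 4444 and 4798 and between 4526 and 4971 in hippocampus. Astrocyte markers (5 genes) summed to between 2411 and 2630 CPM in WT-HFD of brainstem and to between 2581 and 3309 in TG-HFD, with medians of 2474 and 2737, so the groups shared only the range from 2581 to 2630. In hippocampus they summed to between 3246 and 3879 and between 3403 and 4162.

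Choroid plexus markers (4 genes) varied widely between brainstem libraries, from 29.96 to 2906 CPM with a median of 479.6 in WT-HFD and from 11.65 to 2463 with a median of 152.0 in TG-HFD. In hippocampus they ran from 37.31 to 81.26 and from 49.43 to 160.3. The 4 hippocampus markers summed to between 69.65 and 84.24 CPM in WT-HFD of brainstem and to between 73.61 and 104.4 in TG-HFD, and in hippocampus to between 488.1 and 534.1 and between 466.4 and 497.1. Markers of microglia (155.1 to 265.9 CPM), endothelial cells (184.0 to 230.4), mural cells (212.7 to 270.4), ependymal cells (10.28 to 26.24), skeletal muscle (2.175 to 5.018) and brown fat (1.498 to 4.898) overlapped between both groups of brainstem, and those of the same cell types did in hippocampus. The part of cell composition in the values of the members was not tested.

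Other genes of oxidative phosphorylation were called in none of the comparisons by edgeR with 4 surrogate variables. For TG-HFD against WT-HFD, brainstem first, the 28 tested assembly factors of complexes II to V had medians of -0.034 and -0.029, the 34 nuclear genes of complex I -0.016 and -0.018, and the 76 mitochondrial ribosomal protein genes -0.001 and -0.005. The 13 genes of the citric acid cycle had -0.011 and -0.023, the 5 electron carriers and partners -0.020 and -0.088, and the 10 regulators of mitochondrial genes 0.002 and 0.0 on the log2 scale. The 13 genes encoded by mitochondrial DNA had medians above 0, 0.081 and 0.079, with 1 gene below 0 in brainstem and 3 in hippocampus. At an unadjusted p of at most 0.05, edgeR found 3 genes of these lists in brainstem, all among the 34 of complex I, beside 5.59% of all genes. In hippocampus, where 11.3% of all genes had such a p, there were 4 of 28 assembly factors, 1 of 34 genes of complex I, 4 of 76 mitochondrial ribosomal protein genes, 2 of 13 of the citric acid cycle, 1 of 5 electron carriers, 2 of 10 regulators and 6 of 13 mitochondrially encoded genes.

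Without surrogate variables, other nuclear genes of mitochondria also lay below 0 in brainstem for TG-HFD against WT-HFD. Of complex I 31 of 34 genes did, with a median of -0.19, and 20 had an unadjusted p of at most 0.05. Of the mitochondrial ribosomal protein genes 61 of 76 did, with a median of -0.11 and 14 with such a p, beside 19.7% of all genes. Assembly factors were below 0 in 18 of 28 with a median of -0.041, and mitochondrially encoded genes in 0 of 13 with a median of 0.084. The low values in brainstem by this fit were therefore shared by genes outside complexes II to V. In hippocampus the counts were 20 of 34 for complex I (median -0.051), 44 of 76 for the mitochondrial ribosome (-0.018) and 0 of 13 for mitochondrial DNA (0.15).

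The gene of each list with the smallest p shows the size of these values. Among assembly factors these were Cox19, a copper chaperone of complex IV (-0.15 in brainstem, edgeR adjusted p = 0.947), and Sdhaf4, which helps to assemble complex II (-0.37 ± 0.10 in hippocampus, 0.105). Among regulators, Ppargc1a, a coactivator of mitochondrial biogenesis, was at -0.12 in brainstem and Yy1, a transcription factor, at -0.13 in hippocampus (edgeR adjusted p = 0.905 and 0.318). In complex I, Ndufb3 was at 0.17 in brainstem and Ndufs8 at 0.14 in hippocampus (edgeR adjusted p = 0.496 and 0.310).

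The electron carriers were led by Ndufa4, now counted as a partner of complex IV, in brainstem (-0.062) and by cytochrome c, Cycs, in hippocampus (-0.097). Idh3a, of the citric acid cycle, was at -0.066 and -0.090 in the same regions. Mrpl49 and Mrpl41, of the mitochondrial ribosome, were at 0.13 in brainstem and 0.15 in hippocampus. Of the mitochondrially encoded genes, mt-Nd1 was at 0.095 in brainstem and mt-Nd4l at 0.19 in hippocampus (edgeR adjusted p = 0.916 and 0.244). Usmg5, a small subunit of complex V that does not carry the Atp5 name here, was at -0.045 in brainstem and -0.059 in hippocampus. Without surrogate variables, edgeR called 1 of 28 assembly factors, 2 of 10 regulators, 2 of 34 genes of complex I and 3 of 76 mitochondrial ribosomal protein genes lower in hippocampus, where 3.56% of all genes were called lower. Among them was Esrra, an estrogen-related receptor that drives respiratory genes (-0.44, edgeR adjusted p = 0.00684). With the GC correction 0 genes of these lists were called, beside 0.58% of all genes.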

How the data were processed

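The authors aligned single-end reads of poly(A) libraries with STAR 2.7.9a to an Ensembl mouse genome to which the human transgene was added, after FastQC 0.11.9, and deposited raw counts per gene and library, 1 table per region. How reads with several matches were counted is not given in the sources used here. From these counts, those genes whose count averaged 50 or more in a region were normalized with TMM and tested with edgeR 4.0.16 (R 4.3.3), with surrogate variables from sva 3.50.0 (number by num.sv, 4 in both regions) and p-values adjusted by Benjamini-Hochberg over all tested genes. Alternatives were 0 or 2 surrogate variables, DESeq2 1.42.0, RLE scaling, other filters, no fold threshold, GC or length correction (loess on each library's deviations) without surrogate variables, the replicate number as a block, and each library left out. Depth sets the precision of low counts.

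Symbols, principal transcripts and GC content came from GENCODE for GRCm38, matched by Ensembl identifier, so no gene coordinates of the counted build are given. Of the rows whose symbols match the names, 8 annotated pseudogenes were left out. Members, lists and alternatives were chosen with earlier results of these data known. Levels per member are named for all 47 genes, and values per library for members called with 4 or 0 surrogate variables, for the smallest p per complex, for genes the study names, for isoforms and for the c subunit genes. The test was checked on simulated counts for TG-HFD against WT-HFD. It recovered 99 of 100 genes changed by 1 and 82 of 100 changed by 0.5 on the log2 scale in brainstem. In hippocampus it recovered 99 and 86. The simulated libraries held no shared structure such as a slope on GC content, and 0 surrogate variables were estimated there. The fit with 4 surrogate variables was therefore not checked in this way.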

Additional observations from a re-analysis of the deposited data

Results flagged for a closer look

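Of 76 groups of member or complex values examined with Dixon's rule for 1 library far from the rest, 3 stood out, where chance gives about 1 in 20. All 3 are in brainstem. TG-HFD replicate 3 had a mean log2 CPM over complex III of 6.326, where the other libraries of the group had 6.609 to 6.768. TG-SD replicate 1 had 41.11 CPM of Uqcr10, where the others had 62.68 to 70.74. TG-SD replicate 2 had 240.5 CPM of Cox6b1, where the others had 199.6 to 214.3. The first 2 libraries also had the steepest negative slopes on GC content, and its part in these values was not tested.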

How the results depend on the processing

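The count of called members was 0 with 4 surrogate variables in all 10 comparisons and stayed 0 under each alternative in 8 of them. The exceptions were both comparisons of TG-HFD with WT-HFD. In brainstem the count was 1 with 2 surrogate variables (0.187% of all genes called) and 3 by DESeq2 with 0 (0.652%). With 0 surrogate variables in edgeR, it ranged from 0 to 4 when each TG-HFD or WT-HFD library was left out. The value of 4 came without WT-HFD replicate 8 (2.05% of all genes). In hippocampus the count was 4 with 0 surrogate variables (3.88% of all genes), 5 with 2 (4.78%), 4 by DESeq2 with 0 (4.14%) and 5 with a length correction (3.96%). With 4 surrogate variables it ranged from 0 to 2 when each TG-HFD or WT-HFD library was left out, with 2 only without WT-HFD replicate 8. With 0 surrogate variables it ranged from 2 to 4 when each of these libraries was left out, with 2 without WT-HFD replicate 5. It was 0 with the GC correction (0.58%). The cause of these moves was not tested. The leave-one-out runs and the GC correction set against the count with 0 surrogate variables were chosen after seeing the data. The RLE scaling, the filters and the fold threshold changed no count. Of the values for single genes and the medians over members, 20 went past the threshold in the same direction and 5 medians moved, all of them in TG-HFD against WT-HFD or the interaction.

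Over all tested genes, deviations from the group mean were correlated between libraries of the same replicate number. The values ran from -0.314 to 0.404 over 26 pairs in brainstem (median 0.039, other pairs -0.026). In hippocampus they ran from -0.147 to 0.41 over 36 pairs (median 0.065, other pairs -0.041). The meaning of the number is not given, and it was taken as a name. For complex V in hippocampus, replicates 7 and 8 were the lowest libraries of WT-SD, WT-HFD and TG-HFD, but not of TG-SD. With the replicate number as a block, the count of called members was 0 in all 10 comparisons.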

Other observations

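Several processed pseudogenes of members carried counts in every library, and their share of the count of the member differed between pseudogenes. Gm10221 had 89.9% to 97.3% of the count of Atp5l in the brainstem libraries and 93.4% to 97.9% in hippocampus. Gm12338 had 52.4% to 58.1% and 53.0% to 60.2% of the count of Cox7c, and Cox6c2 22.1% to 31.4% and 23.2% to 31.0% of that of Cox6c. The share of 75-base windows in common was 25.3% for Gm12338 and 16.6% for Cox6c2. Whether the same reads were counted on both genes cannot be told from counts per gene.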
